A study of Mus musculus with 6 samples.

Results

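The nuclear-encoded subunits of the mitochondrial respiratory chain and of ATP synthase were compared between C2C12 cells carrying an antisense MyoD construct and control C2C12 cells. Members were taken by gene symbol from the platform annotation: every gene beginning NDUFA, NDUFB, NDUFC, NDUFS, NDUFV, UQCR, COX4 to COX8, ATP5F1 or ATP5P, together with CYC1, CYCS and the SDH genes. This gave 54 genes of the 1521 named genes on the array, or of 2466 features when probes without a gene name are included. Of these, 29 belong to complex I, 1 to complex II, 8 to complex III, 10 to complex IV and 6 to ATP synthase, called complex V below. The rule is by symbol and sets no threshold on a measured value. Members of these families that the array annotation did not list, CYCS and the Rieske protein UQCRFS1 among them, were not analysed here, nor were the subunits encoded in mitochondrial DNA.

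C2C12 is an established mouse myoblast line of strain C3H that fuses into myotubes when serum is reduced. The test cells were 1 clone, MyoD(-)cl.A8, in which MyoD cDNA in reverse orientation was expressed from pcDNA 3.0 after G-418 selection. The reference was C2C12 control cells, for which the labels state no vector and no selection. Clone and control were harvested at 1, 3 and 6 days of differentiation, and clone and control RNA of each day were hybridised to 2 spotted human muscle arrays, so that 6 arrays were read. In replicate A of each day the clone carried Cy5 and in replicate B it carried Cy3. Every result therefore describes 1 clone, read as mouse RNA on human probes, and the labels do not say whether the arrays of a day used separate cultures or extracts.

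The inner mitochondrial membrane holds the complexes that turn electron transfer into ATP. Complex I accepts electrons from NADH and complex II from succinate, ubiquinone carries them to complex III, cytochrome c carries them to complex IV, and the proton gradient so built drives the rotary ATP synthase. Skeletal muscle is rich in these complexes, its mitochondria multiply as myoblasts become myotubes, and some complex IV subunits exist in a muscle form and a ubiquitous form.

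Each value is the score deposited for a spot, averaged over the duplicate spots of a probe and over the probes of a gene, with the array median set to 0. The scale of the score is not stated, so "unit" below means 1 step of the deposited score and not a fold. A positive score is taken as higher RNA in the clone, because the labels name the clone as test and the control as reference. Both dye orientations were taken as deposited with one sign, and every average or count over the arrays of a day rests on that reading. Dye-swapped arrays of a day correlated positively over all features (r between 0.16 and 0.21). Dye or position effects common to both arrays would also give a positive r, so the correlation settles neither that reading nor the direction. The direction is stated by no source and MYOD1 (below) does not settle it, and if it ran the other way every "higher" below would read "lower".

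Precision was limited. Duplicate spots correlated with r between 0.25 and 0.60 over all probes of an array, and between 0.16 and 0.43 over the 73 probes of the members. The gene targeted by the construct, MYOD1, scored 0.41 and -0.36 on day 1, 1.11 and -1.03 on day 3, and 0.50 and 0.26 on day 6, with a mean of 0.15 ± 0.20 (SD, n = 3 days). Its values lay on both sides of 0 and its probe did not show lower MyoD RNA in the clone labelled MyoD-silenced (limma, adjusted p = 0.983). Of 12 measured muscle differentiation markers, 3 were above 0 on day 1, 5 on day 3 and 10 on day 6, and their mean was -0.34, -0.48 and 0.66 on those days. Of 4 measured markers of other lineages, 2 were above 0 on each day. These are ratios, so they do not show whether a marker was present in both cell populations, and the part of the muscle markers' day 6 values in the members' values was not tested.

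Mouse promoter windows were available for 43 of the 54 members (RefSeq, build GRCm38.p6, 250 bases before to 50 after the start of the gene). Genes were matched by symbol for 49 members and by an older synonym for 5. The E box CAGCTG, a sequence MyoD can bind, occurred on either strand in 5 of the 43 windows (11.6%) and in 18.3% of all genes' windows (17.4% of protein-coding genes): the 5 were NDUFA8, NDUFB10, NDUFS5, NDUFV2 and ATP5F1B. The other E box form searched, CACCTG, occurred in 7 (16.3%) against 22.6% of all and 22.1% of protein-coding genes. Short cores known for nuclear genes of mitochondrial proteins were also counted, and are set beside the shares of all and of protein-coding genes. CGCATGCG of NRF1 was in 4 windows (9.3% against 2.07% and 2.77%). CCGGAAG of ETS factors such as GABP was in 7 (16.3% against 9.93% and 12.9%), and AAGATGGC of YY1 in 7 (16.3% against 3.19% and 3.57%). These motifs do not contain one another, and a match describes letters in a window and no binding. The stretches below show the last 150 bases before the start, 5′ to 3′ on the coding strand, for 4 subunits described later: COX8A and NDUFV2, which stood on opposite sides of 0 on day 6, and UQCRH and NDUFB10, which were above 0 on every array. Capitals mark CAGCTG or the ETS core, the latter read as its complement CTTCCGG in Uqcrh.
Cox8a, chr19:7217617-7217766, minus strand: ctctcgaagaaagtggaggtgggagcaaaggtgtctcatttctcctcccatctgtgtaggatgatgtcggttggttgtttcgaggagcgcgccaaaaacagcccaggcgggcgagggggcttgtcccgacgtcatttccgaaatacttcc
Ndufv2, chr17:66101560-66101709, minus strand: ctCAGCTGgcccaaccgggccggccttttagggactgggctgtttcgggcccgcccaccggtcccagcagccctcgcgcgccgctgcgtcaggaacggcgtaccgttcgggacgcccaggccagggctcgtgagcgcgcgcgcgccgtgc
Uqcrh, chr4:116075071-116075220, minus strand: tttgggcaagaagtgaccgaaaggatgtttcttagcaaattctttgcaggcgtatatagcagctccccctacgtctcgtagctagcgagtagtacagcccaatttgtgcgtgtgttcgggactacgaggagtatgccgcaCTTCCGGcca
Ndufb10, chr17:24724424-24724573, minus strand: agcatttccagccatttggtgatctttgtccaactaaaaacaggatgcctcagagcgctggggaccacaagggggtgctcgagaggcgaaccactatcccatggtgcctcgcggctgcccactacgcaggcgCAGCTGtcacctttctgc
In these stretches the E box began at -148 in Ndufv2 and at -18 in Ndufb10, and the ETS core at -10 in Uqcrh, counted from the start of the gene. The Cox8a stretch held none of the 5 motifs, although the full Cox8a window held an ETS core.

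Over the whole course the subunits lay mostly on the side of higher RNA in the clone. Of the 54 members, 43 had a mean above 0 over the 3 days (79.6%), against 50.3% of all features. The median of the member means was 0.39, against 0.00 over all features, and the average member scored 0.32 ± 0.16 (SD, n = 3 days). RNA came from whole cultures, so a different amount of RNA per cell and a different share of cells of a kind cannot be told apart. The shift was small beside the scatter of single genes: members spanned -0.89 (NDUFA2) to 1.17 (NDUFS1). The members' share above 0 was 28 of 54 on day 1 replicate A, 37 on day 1 replicate B, 43 and 33 on day 3, and 34 and 38 on day 6, so that it was nearest to an even split on day 1 replicate A. Without day 1 replicate B the count with a mean above 0 was 37, and leaving out other arrays or days gave 37 to 43.

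No single subunit passed the test of a change shared by the days. By limma on the 3 day means with Benjamini-Hochberg adjustment over all features, 0 of 54 members had an adjusted p under 0.05, against 0.365% of features. At an unadjusted p under 0.05, 3 members were higher (ATP5F1A, NDUFS1 and UQCRH) against 3.41% of features, and 0 were lower against 3.24%. Above 0 on all 6 arrays were 5 members (9.26%) against 2.64% of features, namely NDUFS1, NDUFB10, SDHA, UQCRH and ATP5F1A. NDUFS1 and ATP5F1A had 1 probe each. NDUFB10, SDHA and UQCRH average several probes, of which not every one was above 0 on all 6 arrays. Below 0 on all 6 arrays were 0 members against 2.88%. A further 15 members were above 0 on 5 arrays, against 10.3% of features, 15 on 4 (21.5%), 13 on 3 (30.8%), 3 on 2 (22.1%) and 3 on 1 (9.69%). Without day 6 replicate B the unadjusted count in the shared test was 1, and without day 1 replicate A it was 5. The heat map of all members by array shows this unequal balance and the lack of agreement between many pairs of arrays.

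**Figure D1:**
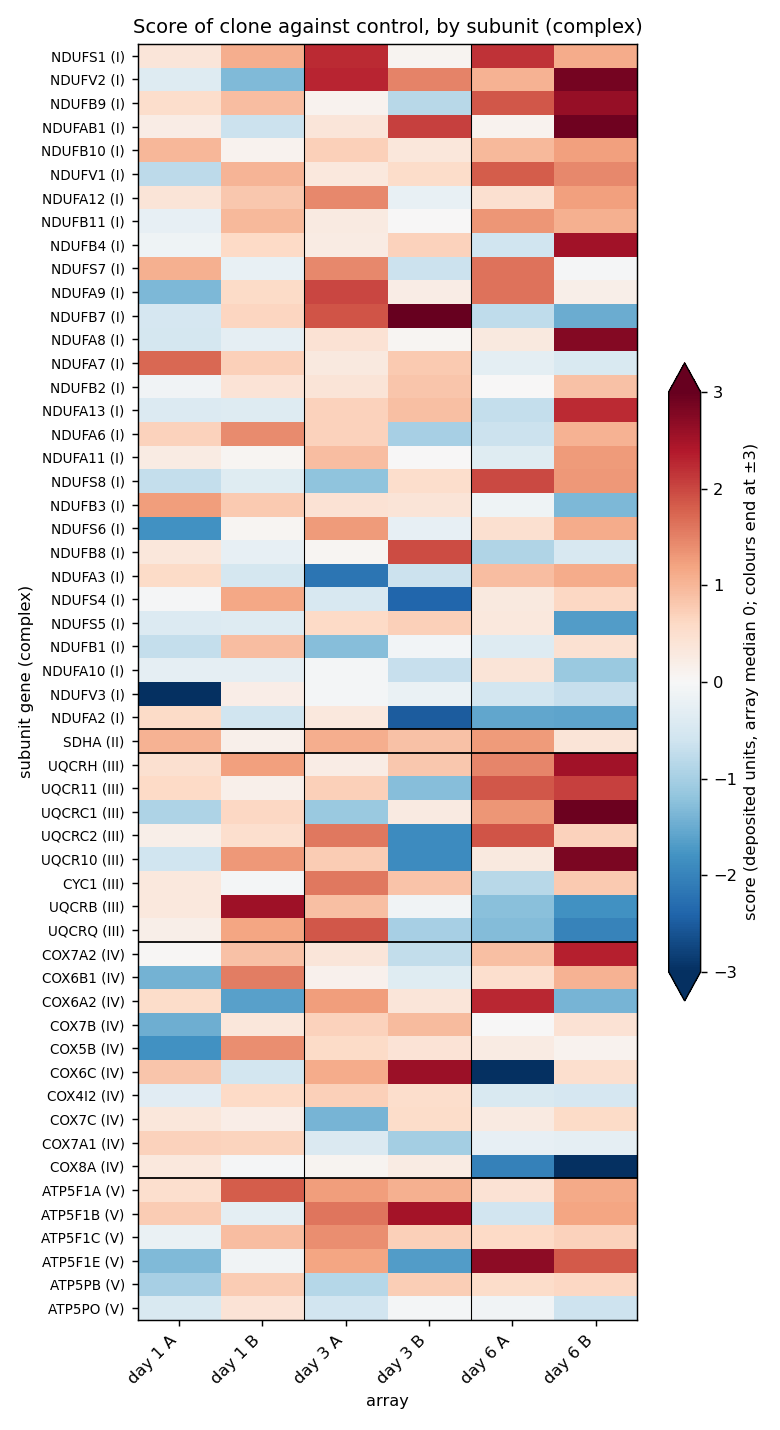
Score of the clone against control for each of the 54 subunits (vertical axis, grouped by complex and ordered by mean) on the 6 arrays (horizontal axis, days 1, 3 and 6, replicates A and B); red is above and blue below the array median, in deposited units, with colours ending at 3 units either way. NDUFS1, NDUFB10, SDHA, UQCRH and ATP5F1A are above 0 in all 6 columns, while COX8A, UQCRB and UQCRQ are blue in both day 6 columns.

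Complex I is built of an NADH-oxidising N module, a quinone-reducing Q module and a proton-pumping membrane arm. Of its 29 subunits 22 had a mean above 0, and the complex averaged 0.32 ± 0.24 (SD, n = 3 days), or 0.21 without day 6. The balance was similar in each module: 6 of 9 N module subunits were above 0 (median 0.46), 3 of 3 Q module subunits (median 0.37) and 13 of 17 membrane arm subunits (median 0.40). None of these 29 passed the adjusted limma test in either direction. The lists hold 9, 6 and 22 genes, so only part of the Q module and membrane arm was measured.

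NDUFS1, the largest iron-sulfur subunit of the N module, had the highest mean of all members. It scored 0.37 and 1.09 on day 1, 2.24 and 0.07 on day 3, and 2.17 and 1.10 on day 6. All 6 arrays were above 0, but day 3 replicate B was near 0, and on day 6 replicate B its duplicate spots read 3.58 and -1.38. The mean was 1.17 ± 0.46 (SD, n = 3 days), short of the threshold (limma, adjusted p = 0.512). NDUFV1, the subunit that binds NADH and flavin, averaged 0.73 and was below 0 on 1 array only, day 1 replicate A at -0.77. Its partner NDUFV2, which carries an iron-sulfur cluster beside the flavin, scored -0.39 and -1.32 on day 1, 2.28 and 1.49 on day 3, and 1.04 and 2.88 on day 6. Both day 1 arrays were thus below all 4 later arrays, and the groups did not overlap. How many of all features had the arrays of a day set apart in this way was not counted, here and for the subunits below.

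The remaining N module subunits did not share a direction. NDUFA2, a small accessory subunit with a thioredoxin fold, had the lowest mean of all members. It scored 0.57 and -0.60 on day 1, 0.31 and -2.49 on day 3, and -1.56 and -1.58 on day 6. The days overlapped, and the mean of -0.89 ± 0.79 (SD, n = 3 days) did not pass (limma, adjusted p = 0.753). All 4 spot readings of NDUFA2 on day 6 were below 0, from -1.99 to -1.16. NDUFV3 averaged -0.75, but its 2 probes had means of -1.99 and 0.48, so the gene value joins probes of opposite sign. NDUFS4, an accessory subunit whose loss is a known cause of Leigh syndrome, averaged -0.14, with -1.43 on day 3 and 0.45 on day 6. NDUFA12 had like values on the days, 0.60, 0.61 and 0.85 on the 3 days, and NDUFA7 went the other way from NDUFV2, with 1.21 on day 1 and -0.38 on day 6. NDUFS6, which binds zinc, averaged 0.14.

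In the Q module, NDUFS7 and NDUFS8 carry the iron-sulfur clusters that pass electrons towards ubiquinone. NDUFS8 scored -0.72 and -0.37 on day 1, -1.22 and 0.53 on day 3, and 1.99 and 1.29 on day 6. Both day 6 arrays were above all 4 earlier ones, and all 4 spot readings of day 6 were above 0. NDUFS7 averaged 0.54, but all 3 replicate A arrays were above 0 (1.07, 1.45 and 1.62) and all 3 replicate B arrays below 0 (-0.22, -0.64 and -0.03), so its sign followed the dye orientation. NDUFA6 averaged 0.37 over 2 probes whose means were -0.09 and 0.83.

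Among membrane arm subunits, NDUFB10 was the one above 0 on every array. It scored 1.00 and 0.10 on day 1, 0.72 and 0.34 on day 3, and 0.98 and 1.23 on day 6, as the mean of 3 probes. The mean was 0.73 ± 0.33 (SD, n = 3 days; limma, adjusted p = 0.812), and each probe mean was above 0, from 0.25 to 1.20. No single probe of the 3 was above 0 on all 6 arrays. Their lowest values were -0.84 on day 1 replicate B, -0.31 on day 3 replicate A and -0.15 on day 1 replicate A. NDUFB9 averaged 0.87 and NDUFAB1, the mitochondrial acyl carrier protein, 0.84, each above 0 on 5 of 6 arrays. The probes of NDUFB9 had means of 0.39 and 1.35, and the higher one held a single spot of 5.76 and 7.77 on day 6. NDUFB7 scored 1.90 and 3.06 on day 3 but -0.77 and -1.50 on day 6, and so changed sides between days. Below 0 on average were NDUFA10 (-0.34), NDUFB1 (-0.18), NDUFS5 (-0.15) and NDUFA3 (-0.12). The other 9 membrane arm subunits had means from 0.12 (NDUFB8) to 0.56 (NDUFB11).

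Complex II was represented by SDHA alone, the flavoprotein that oxidises succinate and also works in the tricarboxylic acid cycle. SDHA scored 1.05 and 0.15 on day 1, 1.08 and 0.88 on day 3, and 1.27 and 0.38 on day 6. It was above 0 on every array, with day means of 0.60, 0.98 and 0.82. These averages join 2 probes that ran opposite ways, one from -0.43 and -0.88 on day 1 to 1.96 and 0.64 on day 6, the other from 2.54 and 1.19 to 0.58 and 0.11. The mean of 0.80 ± 0.19 (SD, n = 3 days) did not pass (limma, adjusted p = 0.765), and the probe means over the days were 0.26 and 1.34.

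Complex III passes electrons from ubiquinol to cytochrome c, and 7 of its 8 measured subunits had a mean above 0 (complex mean 0.45 ± 0.29, SD, n = 3 days). Without day 3 replicate A the complex mean was 0.23. UQCRH, the acidic hinge protein beside cytochrome c1, scored 0.48 and 1.23 on day 1, 0.23 and 0.81 on day 3, and 1.47 and 2.52 on day 6. It was highest on both arrays of day 6, with a mean of 1.12 ± 0.77 (SD, n = 3 days; limma, adjusted p = 0.622), and its probe means were 0.53 and 1.72. Neither probe was above 0 on every array: the first scored -0.94 on day 3 replicate A and the second -0.04 on day 1 replicate A. Cytochrome c1 itself, CYC1, averaged 0.44, with 1.22 on day 3 and values on both sides of 0 on days 1 and 6. The core proteins UQCRC1 and UQCRC2 averaged 0.52 and 0.49. UQCR10 and UQCR11, the smallest subunits, averaged 0.45 and 0.68. Their day 6 values were 1.56 and 1.95, but that of UQCR11 averages spots of opposite sign on both arrays, 4.72 and 7.60 against -1.01 and -3.52.

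The subunits of complex III split on day 6. UQCRC1 scored -0.92 and 0.62 on day 1, -1.11 and 0.26 on day 3, and 1.32 and 2.95 on day 6. Both day 6 arrays were above all earlier ones, and both of its probes and all 8 spot readings of day 6 were above 0. UQCRB, a small subunit involved in ubiquinone binding, scored 0.33 and 2.54 on day 1, 0.91 and -0.10 on day 3, and -1.26 and -1.81 on day 6. UQCRQ, another small subunit, scored 0.17 and 1.19 on day 1, 1.87 and -0.99 on day 3, and -1.30 and -2.01 on day 6. For UQCRB and UQCRQ both day 6 arrays lay below all earlier arrays. When the median of 10 neighbouring probes was subtracted, the day 6 value of UQCRB was -0.24 in place of -1.54.

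Complex IV, cytochrome c oxidase, had the mean nearest to 0. It averaged 0.08 ± 0.24 (SD, n = 3 days), with 8 of 10 subunits above 0 and a median of 0.14. Its sign was not stable: without day 1 replicate B the mean was -0.015, and without day 3 it was -0.046. Without COX8A, a comparison added after the values were seen, it was 0.18. COX5B and COX7B each averaged 0.16, and COX7C 0.09 over 3 probes. COX6C averaged 0.13, but its scores ran from 2.56 on day 3 replicate B to -3.67 on day 6 replicate A, where the duplicate spots read -0.38 and -6.96.

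COX8A, the ubiquitous form of the smallest complex IV subunit, was the member lowest on day 6. It scored 0.32 and -0.04 on day 1, 0.08 and 0.25 on day 3, and -2.03 and -3.54 on day 6. The 4 earlier arrays stayed within 0.32 units of 0 and both day 6 arrays were at least 2 units below it. Its duplicate spots read alike, at -2.11 and -1.95 on replicate A and at -3.62 and -3.46 on replicate B. Its only probe is next in probe order to that of UQCR11, whose day 6 spots were of opposite sign. By limma on the 6 arrays the day 6 value had an adjusted p of 0.111, and it was -1.86 in place of -2.79 after the median of neighbouring probes was subtracted.

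The muscle and ubiquitous forms of complex IV subunits are given side by side, with no test between them. The muscle form COX7A1, averaged over 4 probes, scored 0.69 and 0.67 on day 1, -0.44 and -1.02 on day 3, and -0.24 and -0.28 on day 6. Its day 1 arrays were above all later ones, but its probe means ran from -0.51 to 0.12. The ubiquitous form COX7A2 scored 0.03 and 0.87 on day 1, 0.37 and -0.73 on day 3, and 0.91 and 2.33 on day 6, and had the highest mean of complex IV, 0.63. COX7A1 and COX7A2 thus differed in sign on day 6 as averages, but the probes of COX7A1 disagreed. On day 6 they scored -0.38 and 0.22, 1.14 and -1.84, -1.55 and -0.08, and -0.16 and 0.58. The muscle form COX6A2 scored 0.55 and -1.64 on day 1, 1.25 and 0.37 on day 3, and 2.25 and -1.39 on day 6, so the dye-swapped arrays of days 1 and 6 were of opposite sign. COX6B1, the common form of a subunit that faces cytochrome c, scored -1.42 and 1.54 on day 1, 0.14 and -0.37 on day 3, and 0.50 and 1.05 on day 6. COX4I2, the form of subunit 4 known from lung, scored -0.34 and 0.59 on day 1, 0.72 and 0.52 on day 3, and -0.45 and -0.51 on day 6. COX4I1, COX6A1 and COX8B were not analysed here.

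ATP synthase averaged 0.49 ± 0.30 (SD, n = 3 days), with 5 of 6 subunits above 0, and its head and its side stalk differed. The 4 subunits of the catalytic head and central stalk were all above 0 and averaged 0.76, with day means of 0.26, 1.00 and 1.00. That day 6 value includes ATP5F1E at 2.26, an average of spots of opposite sign, while ATP5F1A, ATP5F1B and ATP5F1C were at 0.79, 0.30 and 0.64. The 2 measured subunits of the peripheral stalk averaged -0.05. That difference rests on few subunits and was not tested.

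ATP5F1A is the alpha subunit of the head. It scored 0.50 and 1.81 on day 1, 1.26 and 1.05 on day 3, and 0.44 and 1.15 on day 6. All 6 arrays were above 0 and the days overlapped, with a mean of 1.03 ± 0.21 (SD, n = 3 days; limma, adjusted p = 0.631). The catalytic beta subunit ATP5F1B averaged 0.86 and stood out on day 3, at 1.61 and 2.49, but scored -0.57 and 1.18 on day 6. The gamma subunit ATP5F1C, the rotor shaft, averaged 0.69 and was below 0 only on day 1 replicate A (-0.21).

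The epsilon subunit ATP5F1E scored -1.32 and -0.09 on day 1, 1.18 and -1.67 on day 3, and 2.68 and 1.84 on day 6. Its day 6 arrays were above all earlier ones, but the averages hide a disagreement between duplicate spots. On day 6 one spot read 6.20 and 6.98 and the other -0.83 and -3.31, so the gene's sign on that day depends on which spot is read. Subtracting the median of neighbouring probes gave 0.97 in place of 2.26 for day 6. Without ATP5F1E the complex averaged 0.50 over the course. It then averaged 0.32, in place of 0.15, on day 1 and 0.39, in place of 0.70, on day 6. In the peripheral stalk, ATP5PB averaged 0.13. ATP5PO, the OSCP subunit that joins stalk to head, scored -0.46 and 0.41 on day 1, -0.56 and -0.06 on day 3, and -0.09 and -0.62 on day 6, with the lowest mean of the complex at -0.23. The membrane subunits of ATP synthase named ATP5M are not members, and 4 of the 7 measured had a mean above 0 (median 0.64).

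**Figure D2:**
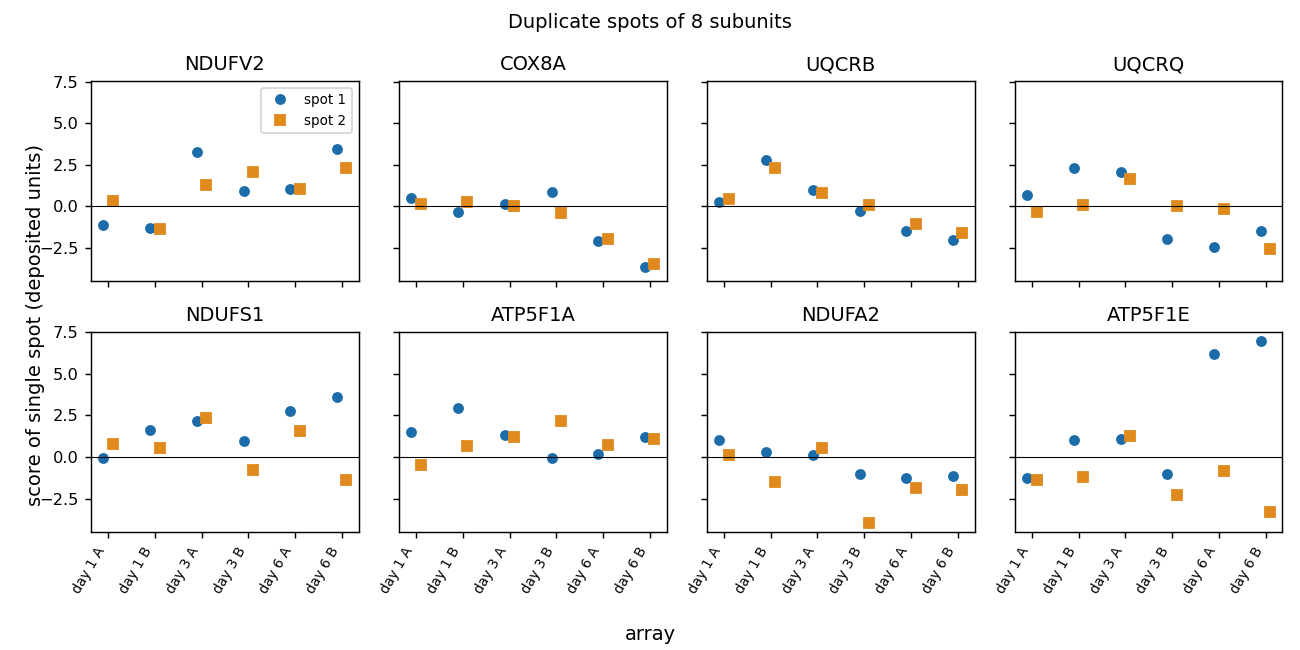
Scores of the duplicate spots (circles and squares, deposited units, vertical axis) of 8 subunits on the 6 arrays (horizontal axis). The spots of COX8A and UQCRB lie together below 0 on day 6, whereas those of ATP5F1E lie far apart there, at 6.20 and 6.98 against -0.83 and -3.31.

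Set side by side, complexes I, III and V lay close together, SDHA above them and complex IV below. Complex II (0.80, 1 subunit), complex V (0.49), complex III (0.45) and complex I (0.32) stood above complex IV (0.08), but the SD over days was between 0.19 and 0.30 for each of the 5. Neighbours in this order, from complex V to complex I, were within 1 SD of each other, and without day 3 replicate A complex III (0.23) stood below complex I (0.27). Without day 1 it also did (0.43 against 0.44). With neighbouring probes subtracted the order was complex I (0.39), complex V (0.38) and complex III (0.32). Complex I scored 0.08, 0.33 and 0.55 on days 1, 3 and 6. Complex V scored 0.15, 0.61 and 0.70, or 0.32, 0.78 and 0.39 without ATP5F1E, and complex III 0.50, 0.14 and 0.71. Complex IV scored 0.05, 0.33 and -0.15, and was the only complex with a negative day mean. COX8A (-2.79) and COX6C (-1.59) were its lowest subunits on day 6, and the mean was 0.15 without the first and 0.01 without the second. On single arrays complex III ranged from -0.53 (day 3 replicate B) to 1.00 (day 6 replicate B), and complexes I, IV and V were below 0 on day 1 replicate A, at -0.09, -0.23 and -0.29. No test was made between complexes, since subunits read on the same arrays are not replicates.

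**Figure D3:**
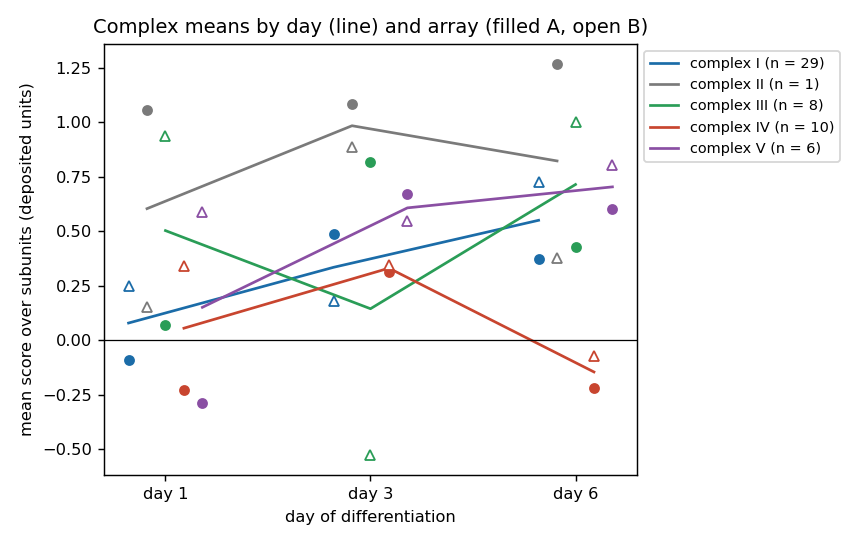
Mean score over the measured subunits of each complex (vertical axis, deposited units) by day of differentiation (horizontal axis); lines join day means, filled points are replicate A and open points replicate B. Complexes I and V are higher on day 6 (0.55 and 0.70) than on day 1 (0.08 and 0.15) and complex IV is at -0.15 on day 6. Without ATP5F1E, whose day 6 spots disagree, complex V is at 0.32 on day 1 and 0.39 on day 6.

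The members spread out over the days. Their SD over genes was 0.90 and 0.78 on the day 1 arrays, 0.95 and 1.15 on day 3, and 1.20 and 1.47 on day 6, while that of all features was 1.10 and 1.07, 1.23 and 1.20, and 1.22 and 1.28. On day 1, 0 members were at least 1 unit higher on both arrays, against 3.28% of features, and 0 were at least 1 unit lower, against 3.89%. On day 3, 5 members were at least 1 unit higher on both arrays (9.26%; ATP5F1A, ATP5F1B, COX6C, NDUFB7 and NDUFV2), against 4.06%, and 0 were lower, against 4.22%. On day 6, 10 members were at least 1 unit higher (18.5%), against 5.35%: NDUFS1, NDUFS8, NDUFV1, NDUFV2, NDUFB9, NDUFB11, UQCRC1, UQCRH, UQCR11 and ATP5F1E. Another 4 were at least 1 unit lower on day 6 (7.41%; NDUFA2, UQCRB, UQCRQ and COX8A), against 5.52%. The counts on the lower side were thus near the background on day 6 and the counts on the higher side were above it. At 1.5 units the higher count on day 6 was 3, against 2.11% of features, and the lower count 2, against 2.47%. At 2 units the higher count was 0, against 0.689%, and the lower count 1, COX8A, against 1.14%.

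Part of the higher count on day 6 rested on single high spots early in probe order. Spots at least 4 units above 0 on both arrays of day 6 numbered 14 on the whole array, and all 14 were the first spot of their duplicate pair and lay within the first 190 probes in probe order. Members held 4 of them: NDUFB9 at 5.76 and 7.77, UQCR11 at 4.72 and 7.60, ATP5F1E at 6.20 and 6.98, and NDUFB11 at 5.81 and 6.61. Their partner spots read 1.63 and -0.04 for NDUFB9, -1.01 and -3.52 for UQCR11, and -1.95 and -4.10 for NDUFB11. The partner spots of UQCR11, NDUFB11 and ATP5F1E were thus below 0 on both arrays, and the 3 subunits at least 1.5 units higher, NDUFB9, UQCR11 and ATP5F1E, each rested on such a spot. From later probes alone, a comparison added after the values were seen, 6 of 37 members were at least 1 unit higher on day 6 (16.2%; NDUFB10, NDUFS1, NDUFS8, NDUFV1, NDUFV2 and UQCRC1), against 4.98% of features. On the lower side there were 2 (5.41%; NDUFA2 and UQCRQ), against 5.37%. COX8A and UQCRB, also lower by at least 1 unit on day 6, have 1 probe each, and both probes lie within the first 190. The part of probe position in these values was not tested.

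Scores of the members correlated between the dye-swapped arrays with r = -0.08 on day 1, 0.17 on day 3 and 0.43 on day 6 (54 genes read on the same arrays), against 0.21, 0.16 and 0.21 over all features. Read spot by spot, 14 members had every spot above 0 on both arrays of day 6 (25.9%), against 12.2% of features, and 7 had every spot below 0 (13%), against 11.8%. The 14 included NDUFS8, NDUFV2, NDUFA9, UQCRC1, UQCRH, ATP5F1A, ATP5F1C and COX7A2, and the 7 were NDUFA2, NDUFB7, NDUFB8, UQCRB, UQCRQ, COX4I2 and COX8A. Of the 10 subunits at least 1 unit higher as averages, only NDUFS8, NDUFV2, UQCRC1 and UQCRH were among the 14, and NDUFS1, NDUFV1, NDUFB9, NDUFB11, UQCR11 and ATP5F1E were not. All 4 of the subunits lower by at least 1 unit were among the 7.

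**Figure D4:**
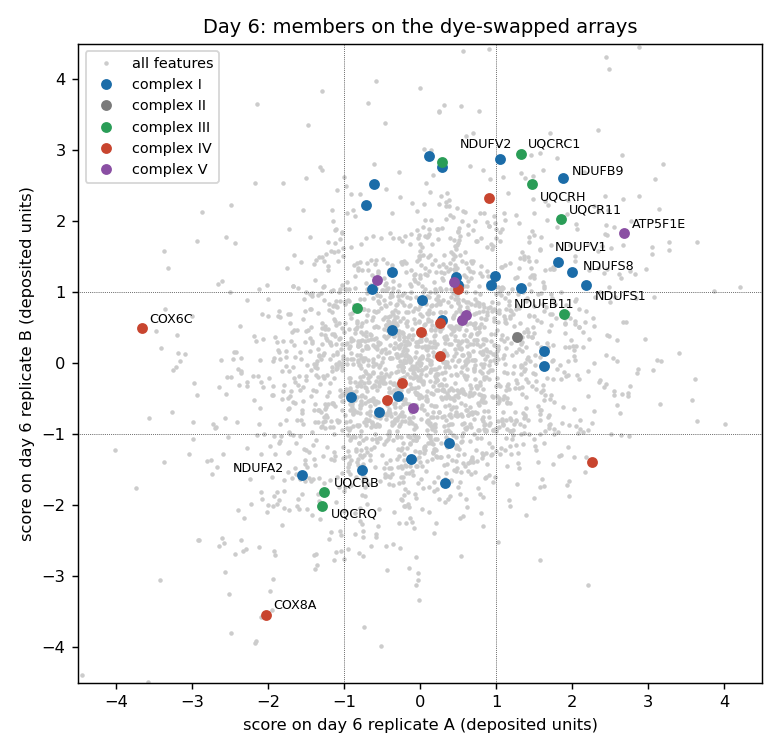
Score of each feature on day 6 replicate A (horizontal axis) against replicate B (vertical axis), in deposited units, with members coloured by complex, all features in grey and dotted lines at 1 unit; 17 features lie outside the axes, which end at 4.5 units. The 10 subunits at least 1 unit higher on both arrays lie at the upper right, COX8A, UQCRB, UQCRQ and NDUFA2 at the lower left, and COX6C at -3.67 and 0.49 shows a disagreement between arrays.

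The difference between clone and control moved from day 1 to day 6 by at most 2.97 units in any subunit, in both directions. Of the 54 members, 35 were higher on day 6 than on day 1 (64.8%), against 50.4% of all features. By limma on the 6 arrays with Benjamini-Hochberg adjustment, with the spread between dye-swapped arrays as its error, 0 members had an adjusted p under 0.05 for this change, against 0.365% of features. At an unadjusted p under 0.05, 4 members had an upward difference (NDUFV2, NDUFS8, UQCRC1 and ATP5F1E), against 3.85%, and 3 a downward one (COX8A, UQCRB and UQCRQ), against 4.42%. Without day 1 replicate A these 7 were 3. Of the upward members, NDUFV2 had a difference of 2.82 (SE 0.95; adjusted p = 0.477) and NDUFS8 one of 2.19 (SE 0.93; adjusted p = 0.569). UQCRC1 had a difference of 2.28, or 1.47 without day 6 replicate B. ATP5F1E, with its unlike spots, had one of 2.97, or 1.96 with neighbouring probes subtracted. Downward, COX8A had a difference of -2.93 (SE 0.91; adjusted p = 0.401), UQCRB one of -2.97 (SE 0.98; adjusted p = 0.456) and UQCRQ one of -2.34. Over the alternatives tried, the lowest adjusted p of any of these 7 was 0.202, for COX8A without day 6 replicate A. The UQCRB difference was -4.08 without day 1 replicate A, -1.86 without day 1 replicate B and -1.96 with neighbouring probes subtracted.

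Other mitochondrial genes gave a frame for these values, with none passing the adjusted limma test in either direction in any list. Carriers and porins of the mitochondrial membranes had 5 of 7 measured genes above 0 (median 0.40), and import factors and chaperones 8 of 13 (median 0.26). Assembly and biogenesis factors of the respiratory chain had 7 of 11 above 0 (median 0.17). Enzymes of the tricarboxylic acid cycle had 2 of 4 (median 0.25), and those of fatty acid oxidation 4 of 9 (median -0.00). Mitochondrial ribosomal proteins, a list chosen after values were seen, had 17 of 18 above 0 (median 0.33).

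Members were not spread evenly over the probe order. Of their 73 probes, 25 lay among the first 190 of the array's 2688 probes. There, members had a median of 0.23 (20 of 25 above 0), against 0.06 for the other probes (90 of 165 above 0). Among later probes, members had a median of 0.46 (40 of 48 above 0), against -0.02 for the other probes (1189 of 2450 above 0). Of the 37 members measured by later probes, 29 had a mean above 0.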

How the data were processed

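Arrays were spotted with human muscle probes and hybridised with 2 colours. The authors deposited 1 score per spot for each of 6 arrays, and no label or header used here says how they normalised the deposited score. Each array held 5376 spots, which are 2688 probes in duplicate, with 0 missing values. Genes were named from the platform annotation. Duplicate spots and the probes of a gene were averaged and each array was centred on its median. Counting depth does not apply to arrays, and the number of arrays limits precision. The shared test was limma (3.58.1, R 4.3.3) on the 3 day means against 0, and day values and the day 6 minus day 1 difference came from limma on the 6 arrays, 2-sided, with Benjamini-Hochberg adjustment over all 2466 features and a threshold of 0.05. Nothing in the labels says that replicate arrays came from separate cultures. The p-values of day values and of the day 6 minus day 1 difference therefore measure spread between arrays, which may be technical. Those of the shared test measure spread between the 3 day means, and the days are not replicates of 1 condition. Replicate letters mark dye orientation, and their deviations did not correlate between days (r from -0.04 to 0.00). With duplicate spots this noisy, that cannot show whether arrays of 1 letter shared a culture or extract. The main tests did not pair arrays by letter.

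Subunits given array by array were, in each complex, those with the highest and lowest means, those of 1 sign on all 6 arrays, those at an unadjusted p under 0.05, those at least 2 units from 0 on both arrays of a day, and the isoforms. Members and lists were chosen with earlier results of these data known. Some values of single arrays, spots or probes are also given for other subunits chosen after their values were seen. Alternatives covered centring, scaling, probes, neighbouring probes, thresholds, the dye term and left-out arrays and days. Only the shared test was checked on simulated data, drawn independently for each feature and day. The tests of day values and of the day 6 minus day 1 difference were not. Tables and figures were made with Python 3.11.15 and matplotlib 3.10.9.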

Additional observations from a re-analysis of the deposited data

Results flagged for a closer look

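In 9 of the 54 subunits both arrays of day 1 lay on one side of 0 and both arrays of day 6 on the other, a pattern that 385 of 2466 features shared. The members' share was thus close to that of all features. None of the 9 passed limma's adjusted test of the difference between the days. Upward from day 1 to day 6 were 4 subunits: NDUFA8, a membrane arm subunit of complex I, by 1.92, NDUFS8 by 2.19, NDUFV2 by 2.82 and ATP5F1E by 2.97. NDUFA8 averages 2 probes, and its second probe did not show the pattern, at 0.67 on day 1 replicate B and -0.47 on day 6 replicate A. Downward were 5: NDUFA7 of the N module differed by -1.59, NDUFB3 of the membrane arm by -1.76, UQCRB by -2.97, UQCRQ by -2.34 and the muscle form COX7A1 by -0.94. COX7A1 showed the pattern only as the average of its 4 probes, and no single probe of the 4 showed it.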

How the results depend on the processing

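Of the results recomputed under the alternatives, 352 values kept their direction and stayed within the stated spread or within 1.5 times a count, 45 moved further and 2 reversed. Some of the 352 could not move. Leaving out a day 3 array cannot alter a subunit's difference between day 6 and day 1, and neither can the replicate block. No member passed an adjusted p of 0.05 under any alternative, in the shared test or in the change from day 1 to day 6, where with the replicate block the count was 0 in both. Each day holds 1 array of each dye orientation, so that block cannot move the means, and the count of members above 0, 43 with it, was fixed by the design. The complex IV mean ran from -0.046 to 0.19 when single arrays or days were left out, and was below 0 without day 1 replicate B (-0.015) and without day 3 (-0.046); the cause was not tested. With neighbouring probes subtracted the complex II mean was 1.00 and the day 1 count of members at least 1 unit from 0 on both arrays was 2 in place of 0. At 0.5 units these counts were 6, 13 and 22 on days 1, 3 and 6, against 22.6%, 23% and 26.8% of features. At 1.5 units they were 2 on day 3 and 5 on day 6 (3.2% and 4.58% of features), and at 2 units 0 and 1 (1.26% and 1.82%). From probes after the first 190, chosen after seeing the data, the day 6 count was 8 in place of 14. Members above 0 on every array numbered 2 with probes kept separate and up to 15 without day 1, and members at an unadjusted p under 0.05 in the shared test 1 to 8. Restricting to features on all arrays changed nothing, since no value was missing, and counting NDUFA4 in complex IV or leaving out NDUFAF genes changed nothing, since neither is among the members. The low agreement of duplicate spots limits what single genes can show.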
